A study of Mus musculus with 8 samples.

Results

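The Tmed genes encode the p24 proteins, cargo receptors of the early secretory pathway. The 10 genes Tmed1 to Tmed10 were chosen by their symbols, and all 10 were present among the 27534 genes of the deposited table and passed the filter on low counts. The table comes from bulk RNA sequencing of pancreatic islets of C57BL/6J mice. Islets are small endocrine organs within the pancreas in which insulin-secreting β cells are the main cell type. The islets were cultured for 72 h in RPMI 1640 medium with fetal bovine serum, HEPES and either 20 mM glucose (high glucose, 4 libraries) or 7.5 mM glucose (low glucose, 4 libraries). The series as a whole concerns IRE1α, a stress sensor of the endoplasmic reticulum (ER), and Golgi expansion when β cells begin to compensate. The labels give no age or sex of the mice and do not say whether libraries came from separate animals, so p-values measure the spread between these libraries, which may be technical.

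The p24 proteins are small transmembrane proteins that cycle between the ER and the Golgi. Each has a GOLD domain and a coiled coil in the lumen and, in the typical members, a short cytosolic tail that binds the COPII coat of vesicles leaving the ER and the COPI coat of vesicles returning to it. They act in mixed complexes drawn from the α, β, γ and δ subfamilies, select cargo such as proteins anchored by glycosylphosphatidylinositol (GPI), and take part in vesicle formation and Golgi structure. In β cells they have been linked to proinsulin transport. Of the genes examined, Tmed4 and Tmed9 belong to the α subfamily, Tmed2 is the β member, Tmed1, Tmed3, Tmed5, Tmed6 and Tmed7 belong to the γ subfamily, and Tmed10 is the δ member. Tmed8 encodes a GOLD domain protein that is related to the p24 proteins but stands outside these subfamilies.

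Total counts were between 19543045 and 24949515 per library, and the 10 Tmed genes together took 32168 to 53464 of them. They made up 0.215% to 0.229% of each high glucose library against 0.159% to 0.167% of each low glucose library, with no overlap between the groups. The insulin genes Ins1 and Ins2 took 17.2% to 22.7% of the counts. Genes of the enzyme-secreting acinar cells, which remain attached to isolated islets in varying numbers, took 0.517% to 2.88% in high and 0.206% to 1.73% in low glucose and were higher in high glucose in each of the 4 same-number pairs. Of 31 tested acinar marker genes, 1 passed the test, as higher in high glucose. It was Bhlha15, a transcription factor gene of secretory cells, at 99.2 to 111 CPM (counts scaled to a common library total after TMM adjustment) in high and 48.6 to 57.3 CPM in low glucose. Among markers of β cells 2 of 10 were higher and 4 lower, of α cells 2 and 1 of 8, and of duct cells 1 and 1 of 9, while none of δ (4), PP (2), endothelial (8), fibroblast and stellate (9) or macrophage (8) markers passed. Of all genes tested, 13.1% were higher and 11.9% lower in high glucose, the shares to set beside these counts. Fibroblast and stellate markers took 0.0161% to 0.115% of the counts in high and 0.0137% to 0.0322% in low glucose. No marker of these 9 cell types was at 0 in every library, and their part in the results was not tested beyond the acinar covariate given below. In bulk RNA, fewer cells of a type and less RNA per cell cannot be told apart.

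In high glucose, 6 of the 10 Tmed genes rose, 1 fell and 3 did not pass. The test was edgeR's quasi-likelihood test over 15442 genes, with an adjusted p under 0.05. Over all genes tested, 13.1% were higher and 11.9% were lower in high glucose (25.0% in either direction). The median log2 fold change was 0.45 over the 10 Tmed genes and -0.013 over all genes tested. The genes that rose were Tmed3, Tmed6, Tmed9, Tmed10, Tmed2 and Tmed5, so that each of the 4 subfamilies had at least 1 member among them, and the gene that fell was Tmed8. The groups did not overlap for the same 7 genes, against 13.7% of all genes without overlap in the direction of high glucose and 13.6% in that of low glucose. Of all changed genes, 52.5% were higher with the TMM scaling used here and 37.8% when libraries were scaled by their size alone, which moved the median of all genes to -0.094. Under that scaling too, 6 Tmed genes were higher and 1 was lower.

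**Figure D1:**
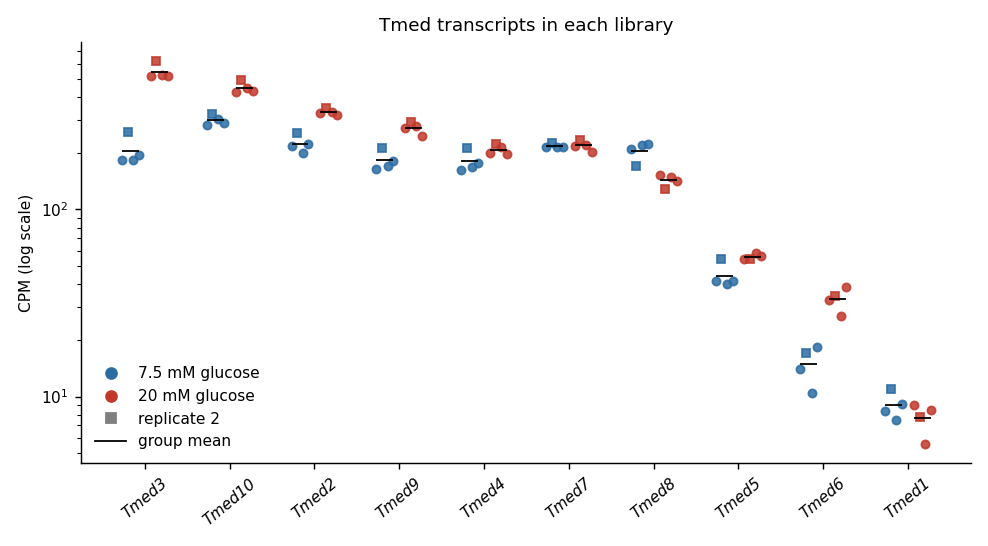
Level of each Tmed gene in CPM (log scale) in each of the 8 libraries, with low glucose in blue and high glucose in red. Points are libraries, squares are the libraries numbered 2 and bars are group means (n = 4). For Tmed3 the 4 high glucose libraries lie between 516 and 623 CPM, all above the low glucose libraries at 183 to 260 CPM, while the Tmed7 libraries of both groups lie together.

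The γ member Tmed3 showed the largest change of the family (ENSMUSG00000032353, GRCm38 chromosome 9, 89699206 to 89705068, minus strand). Its level was 516, 623, 525 and 517 CPM in high glucose replicates 1 to 4. In low glucose replicates 1 to 4 it was 183, 260, 183 and 196 CPM. The lowest high glucose library was thus well above the highest low glucose library, and in both groups the library numbered 2 was the highest. The mean of Tmed3 was 205 ± 36.7 CPM in low and 545 ± 51.9 CPM in high glucose, where ± is the SD over the 4 libraries of a group, as in all means that follow. Tmed3 thus rose 2.65-fold, and its log2 fold change was 1.41 ± 0.12 (SE), with an edgeR adjusted p of 3.41e-05.

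The bases upstream of the transcript starts of Tmed3 and Tmed6 are shown because these genes had the largest increases of the family. RefSeq (GRCm38.p6) windows reaching from 250 bases before to 50 bases after the start were matched for 8 of the 10 genes (9 windows), and Tmed2 and Tmed7 had none. The windows were searched on both strands for 5 motifs. These were the ER stress elements ERSE (CCAAT and CCACG with 9 bases between) and ERSE-II (ATTGG and CCACG with 1 base between), the element TGACGTGG, the shorter GACGTG that TGACGTGG contains, and the carbohydrate response element (CACGTG and CACGTG with 5 bases between).
Tmed3: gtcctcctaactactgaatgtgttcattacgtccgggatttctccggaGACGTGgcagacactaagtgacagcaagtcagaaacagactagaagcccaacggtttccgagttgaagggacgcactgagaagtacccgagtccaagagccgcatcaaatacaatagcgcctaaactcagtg
Tmed6: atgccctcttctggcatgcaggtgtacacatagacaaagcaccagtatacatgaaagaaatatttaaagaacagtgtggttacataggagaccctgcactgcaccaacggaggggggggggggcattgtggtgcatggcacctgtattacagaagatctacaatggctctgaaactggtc
Both run 5′ to 3′ along the gene, from position -250 to -71 relative to the start, at chr9:89705114-89705293 and chr8:107065715-107065894, both on the minus strand, and capitals mark GACGTG. Tmed3 was the 1 gene of the 8 with GACGTG, at position -202 on the strand of the gene and again on the other strand at position 32 after the start, which is not printed. Of 32851 RefSeq windows of the same length, 6.38% held GACGTG on either strand. The other searched elements were in no window of the family, and in 0.119% (ERSE), 0.0365% (ERSE-II), 0.676% (TGACGTGG) and 0.0% (the carbohydrate response element) of all windows. The carbohydrate response element in the strict form searched matched 0 of all 32851 windows, so its absence from the family says nothing about these genes. ERSE, ERSE-II and TGACGTGG are so rare over all windows that their absence from 9 windows is no result about the family either. With so few windows, 1 gene with GACGTG is near the share over all windows. A match is a description of the letters and does not show binding.

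Tmed6 encodes a γ member known for its high expression in the pancreas (ENSMUSG00000031919, chromosome 8, 107061476 to 107065644, minus strand). Its level in high glucose replicates 1 to 4 was 33.0, 34.3, 26.8 and 38.7 CPM. In low glucose replicates 1 to 4 it was 14.1, 17.1, 10.4 and 18.3 CPM. All high glucose libraries were above all low glucose libraries, and replicate 4 was the highest and replicate 3 the lowest of each group. Tmed6 rose 2.22-fold, with a log2 fold change of 1.15 ± 0.17 (SE) and adjusted p = 0.00076. High glucose replicate 4 and low glucose replicate 4 also had the largest acinar shares of their groups, 2.88% and 1.73%. With the acinar share as a covariate the log2 fold change of Tmed6 was 1.06 with adjusted p = 0.00049.

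The remaining γ genes moved less than Tmed3 and Tmed6. Tmed5 (ENSMUSG00000063406, chromosome 5, 108106366 to 108132620, minus strand) was at 54.5, 54.4, 58.6 and 56.5 CPM in high glucose replicates 1 to 4. In low glucose it was at 41.4, 54.1, 39.8 and 41.2 CPM. Low glucose replicate 2 thus came up to just below the lowest high glucose library, while the other low glucose libraries were clearly lower. Tmed5 rose 1.27-fold, with a log2 fold change of 0.34 ± 0.10 (SE) and adjusted p = 0.0263. The call was lost without high glucose replicate 3 (adjusted p = 0.0722) or 4 (0.0625) or without low glucose replicate 1 (0.0790), 3 (0.0729) or 4 (0.0799). Without low glucose replicate 2 the log2 fold change was 0.46 with adjusted p = 0.00023. Tmed5 shares 395 exonic bases with Mtf2 on the opposite strand in GENCODE M21, and since the strand setting of the counting is not given in the sources used here, its value is uncertain.

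Tmed7, the γ gene on chromosome 18 (ENSMUSG00000033184, 46560235 to 46597535, minus strand), was at 220, 236, 221 and 203 CPM in high glucose replicates 1 to 4. In low glucose it was at 216, 227, 217 and 216 CPM. The groups lay on top of each other, and the log2 fold change was 0.0077 ± 0.069 (SE), with adjusted p = 0.951 and a 95% confidence interval of -0.15 to 0.16. Its sign turned with library size alone as scaling (-0.074, adjusted p = 0.404). Tmed7 shares 838 exonic bases with Ticam2 on the same strand, and Ticam2 was given 54 counts over the 8 libraries. How reads on the shared bases were counted was not tested, so the value of Tmed7 is uncertain too.

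Tmed1 (ENSMUSG00000032180, chromosome 9, 21507553 to 21510252, minus strand), named as a partner of the interleukin receptor family, was the γ gene with the fewest reads. Its level in high glucose was 9.05, 7.74, 5.56 and 8.49 CPM. In low glucose it was 8.38, 10.9, 7.48 and 9.07 CPM, and the groups overlapped. The log2 fold change was -0.21 ± 0.17 (SE), with adjusted p = 0.415 and a 95% confidence interval of -0.60 to 0.17. Tmed1 shares 207 exonic bases with Dnm2 on the opposite strand, so its value is uncertain. Dnm2 had 27994 counts over the 8 libraries, and how many reads the genes share was not tested.

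The β member Tmed2 and the δ member Tmed10, the subunits most often described as the core of p24 complexes, both rose. Tmed2 (ENSMUSG00000029390, chromosome 5, 124540695 to 124550506, plus strand) was at 328, 348, 330 and 322 CPM in high and 219, 256, 199 and 225 CPM in low glucose replicates 1 to 4. It rose 1.48-fold, with a log2 fold change of 0.56 ± 0.08 (SE) and adjusted p = 0.00084. Tmed10 (ENSMUSG00000021248, chromosome 12, 85340614 to 85374847, minus strand), also called p23 or TMP21, was at 424, 492, 445 and 431 CPM in high and 281, 323, 305 and 291 CPM in low glucose. Its groups were as clearly apart as those of Tmed2. Tmed10 rose 1.49-fold, with a log2 fold change of 0.58 ± 0.08 (SE) and adjusted p = 0.00046. The table also lists Tmed10-ps, a processed copy of Tmed10 on chromosome 13 (35990861 to 35991520), which had 8 to 33 counts per library and did not pass the test (adjusted p = 0.153), against 6024 to 10650 counts of Tmed10 itself.

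Of the α genes, Tmed9 passed the test and Tmed4 did not. Tmed9 (ENSMUSG00000058569, chromosome 13, 55573732 to 55597697, plus strand) was at 273, 294, 279 and 247 CPM in high and 165, 214, 171 and 182 CPM in low glucose replicates 1 to 4. Tmed9 rose 1.49-fold, with a log2 fold change of 0.58 ± 0.10 (SE) and adjusted p = 0.0015. Tmed4 (ENSMUSG00000004394, chromosome 11, 6270369 to 6274870, minus strand) was at 201, 224, 215 and 197 CPM in high and 163, 212, 170 and 177 CPM in low glucose. Low glucose replicate 2 lay within the range of the high glucose libraries, and the log2 fold change of Tmed4 was 0.21 ± 0.09 (SE) with adjusted p = 0.126. Within same-number pairs Tmed4 was higher in high glucose in 4 of 4, with log2 ratios from 0.08 to 0.34. With the replicate block its adjusted p was 0.0133, and without low glucose replicate 2 it was 0.0082, so that 7 Tmed genes were then higher. The authors' deposited table gives Tmed4 an adjusted p of 0.0939, and it calls the same 7 genes of the family as edgeR did.

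Tmed8 was the member that fell (ENSMUSG00000034111, chromosome 12, 87166237 to 87200454, minus strand). It was at 154, 128, 149 and 142 CPM in high glucose replicates 1 to 4. In low glucose it was at 210, 171, 220 and 224 CPM. All high glucose libraries were below all low glucose libraries, and the library numbered 2 was the lowest of each group, where for most other members it was the highest. Tmed8 fell 1.44-fold, with a log2 fold change of -0.52 ± 0.10 (SE) and adjusted p = 0.0031. Within same-number pairs Tmed8 was higher in high glucose in 0 of 4, with log2 ratios from -0.65 to -0.41.

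**Figure D2:**
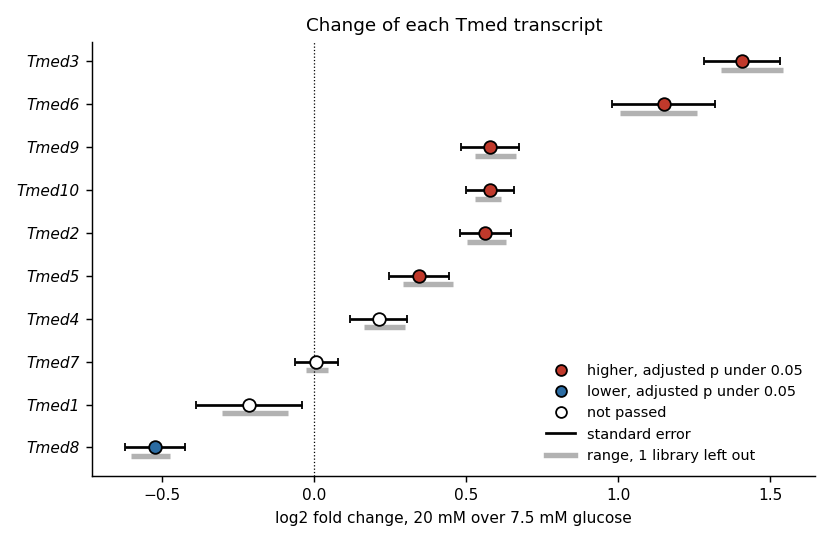
Log2 fold change of each Tmed gene in high over low glucose from edgeR (points) with its standard error (black bars), and the range of the value when 1 of the 8 libraries is left out (grey bars). Red and blue points passed as higher and lower, and open points did not pass. Tmed3 at 1.41 and Tmed6 at 1.15 stand at the upper end and Tmed8 at -0.52 at the lower end, and the grey bar of Tmed7 spans 0.

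The libraries numbered 2 stood apart within their groups for most of the family. Low glucose replicate 2 was the highest of the 4 low glucose libraries for 8 of the 10 genes and the lowest for 1, and high glucose replicate 2 was the highest of its group for 6. Both also had the largest insulin shares of their groups (21.7% in high and 22.7% in low glucose). With both libraries numbered 2 left out, an alternative chosen after the data were seen, 7 Tmed genes were higher and 1 was lower, and the log2 fold change of Tmed3 was 1.47, that of Tmed5 0.47 and that of Tmed8 -0.55. With the acinar share as a covariate, 6 were higher and 1 was lower. Tmed11, a further α gene of the mouse outside the 10, had 9, 0, 0 and 9 counts in high and 5, 1, 0 and 4 counts in low glucose replicates 1 to 4 and failed the filter on low counts. In each group its counts were highest in replicates 1 and 4, where the acinar shares were highest too (1.57% and 2.88% in high, 1.30% and 1.73% in low glucose); their part in these counts was not tested.

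Levels of different genes can be compared only per length, which the deposited FPKM (counts scaled by gene length and by a divisor of each library) allow. The listed lengths cover all exons of a gene and reach 8839 bases for Tmed7, 7688 for Tmed5 and 7409 for Tmed8, against 871 to 5811 for the others, and FPKM depend on them; which transcripts islets use was not tested. In low glucose the order by mean FPKM was Tmed2 (86.7 ± 9.00), Tmed4 (80.9 ± 9.66), Tmed3 (70.4 ± 12.4), Tmed9 (51.9 ± 6.22) and Tmed10 (50.3 ± 2.92), followed by Tmed8 (27.2 ± 3.28), Tmed7 (24.1 ± 0.542), Tmed6 (16.8 ± 4.02), Tmed1 (5.76 ± 0.936) and Tmed5 (5.60 ± 0.833). There the ranges of neighbours overlapped for Tmed2 and Tmed4, Tmed4 and Tmed3, Tmed9 and Tmed10, Tmed8 and Tmed7, and Tmed1 and Tmed5. In high glucose Tmed3 came first (190 ± 17.3), clear of Tmed2 (130 ± 4.00), and Tmed4 (95.0 ± 5.51), Tmed9 (78.7 ± 5.53) and Tmed10 (76.3 ± 5.01) followed. Tmed6 (37.7 ± 5.44) then stood above Tmed7 (24.6 ± 1.48) and Tmed8 (19.2 ± 1.55), and Tmed5 (7.21 ± 0.301) and Tmed1 (5.02 ± 0.975) came last. In that group only Tmed9 and Tmed10 overlapped as neighbours.

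The summed FPKM of the 10 genes was 663 ± 34.1 in high and 420 ± 41.0 in low glucose, and its composition differed. Tmed3 made up 27.8% to 30.2% of the sum in high glucose libraries and 16.0% to 18.6% in low glucose libraries. Tmed4 made up 14.3% ± 0.431 in high and 19.2% ± 0.532 in low glucose. Tmed7 made up 3.55% to 3.81% and 5.23% to 6.14%, and Tmed8 2.39% to 3.18% and 4.71% to 7.44%, so that the groups did not overlap for these genes. The share of Tmed2 was 19.6% ± 0.428 in high and 20.7% ± 0.738 in low glucose, that of Tmed9 11.9% ± 0.518 and 12.4% ± 0.332, and that of Tmed10 11.5% ± 0.220 and 12.0% ± 0.783. Together the 5 γ genes made up 39.8% ± 1.27 in high and 29.1% ± 1.24 in low glucose, and the 2 α genes 26.2% ± 0.875 and 31.6% ± 0.857. The γ genes did not move alike. The share of Tmed3 was larger in high glucose, as was the mean share of Tmed6 (5.70% ± 0.921 against 3.98% ± 0.778), though its ranges overlapped. Tmed7 took a smaller share in high glucose, as did Tmed1 (0.556% to 0.913% against 1.23% to 1.47%) and Tmed5 (0.976% to 1.16% against 1.25% to 1.44%). Shares of a sum are not independent of each other, and no test was made on them.

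**Figure D3:**
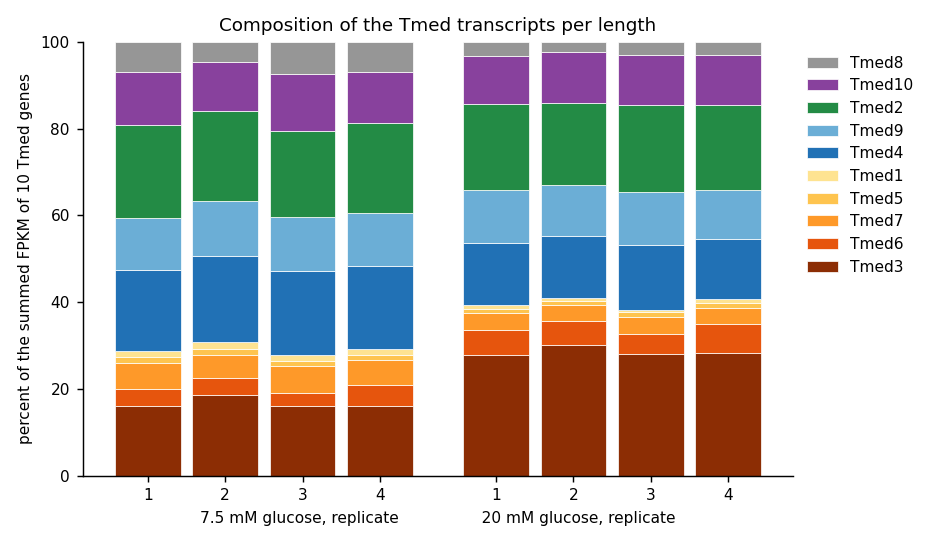
Share of each Tmed gene in the summed FPKM of the 10 genes, in percent, for each library, with low glucose on the left and high glucose on the right. γ genes are in brown to yellow, α genes in blue, Tmed2 in green, Tmed10 in purple and Tmed8 in grey. The Tmed3 segment takes 16.0% to 18.6% of the low glucose bars and 27.8% to 30.2% of the high glucose bars.

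Ratios between members within a library do not depend on the scaling of the libraries. Of 3 ratios of FPKM, chosen after the values were seen, that of Tmed3 to Tmed7, within the γ subfamily, was 7.30, 8.19, 7.37 and 7.93 in high and 2.64, 3.56, 2.62 and 2.82 in low glucose replicates 1 to 4. That of Tmed9 to Tmed4, within the α subfamily, was 0.859, 0.834, 0.823 and 0.795 in high and 0.639, 0.640, 0.639 and 0.649 in low glucose. Neither ratio overlapped between the groups. The ratio of Tmed2 to Tmed10 was 1.71 ± 0.0633 in high and 1.72 ± 0.148 in low glucose, and its groups overlapped. Since the pairs of genes were picked with their changes known, the ratios are a description, with no test.

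**Figure D4:**
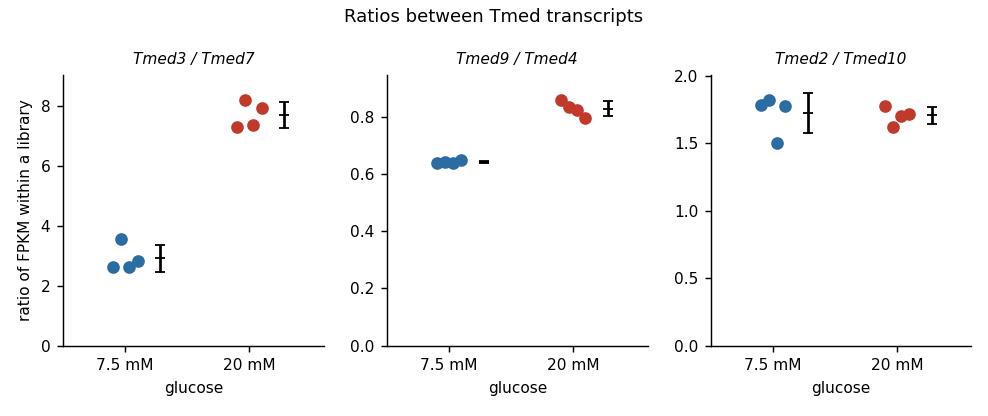
Ratios of FPKM between 2 Tmed genes within each library (points), with the mean and SD of each group beside them (n = 4). The Tmed3 to Tmed7 ratio is 2.62 to 3.56 in low and 7.30 to 8.19 in high glucose, the Tmed9 to Tmed4 ratio is 0.639 to 0.649 and 0.795 to 0.859, and the Tmed2 to Tmed10 ratio overlaps between the groups.

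Genes of the coats that p24 tails bind were counted beside the family. The shares of all genes tested were 13.1% higher and 11.9% lower in high glucose. Of 18 genes of the COPI coat and of the ARF GTPase cycle that recruits it, 11 rose and none fell, and the median of their log2 fold changes was 0.31. The smallest adjusted p were those of Arfgap3, a GTPase-activating protein of the cycle (1.55-fold, adjusted p = 0.00010), and of the coat subunits Arcn1 (1.52-fold, 0.00029) and Copb1 (1.40-fold, 0.00039). Of 17 genes of the COPII coat and ER exit sites, 9 rose and none fell, with a median of 0.36. Sec23b, an inner coat subunit, rose 1.68-fold (adjusted p = 3.55e-05), the coat GTPase gene Sar1a 1.56-fold (0.00012) and Preb, which activates SAR1, 1.44-fold (0.00019). By edgeR 0 genes of these lists were lower even at an unadjusted p under 0.05, and DESeq2 and limma-voom called 0 lower as well. With library size alone as scaling 1 COPI gene was lower. Under that scaling 2636 genes of the whole table were lower and 1602 higher.

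Of 17 other cargo receptors, most of which act between ER and Golgi, 12 rose and 1 fell, at a median of 0.39 on the log2 scale. Among all genes tested, 13.1% rose and 11.9% fell. Kdelr3, a receptor that returns ER residents, rose 2.53-fold (adjusted p = 2.21e-05), Mcfd2, which works with the lectin LMAN1, 1.82-fold (4.62e-05) and Ergic2 1.44-fold (0.00017). The gene that fell was Sort1 (1.39-fold, adjusted p = 0.0046), whose product sorts cargo after the Golgi. Among Golgi scaffold genes tied to p24 proteins, Gorasp2 rose from 208 ± 10.5 to 306 ± 16.6 CPM (1.47-fold, adjusted p = 0.00034), Gorasp1 rose 1.20-fold (0.0098) and Blzf1, which encodes the golgin-45 partner of GORASP2, rose 1.24-fold (0.0195). Golga2, which encodes the golgin GM130, was at 147 ± 8.13 and 134 ± 5.17 CPM with adjusted p = 0.21. Gorasp1 and Blzf1 did not pass with library size alone as scaling (adjusted p = 0.109 and 0.0519), which left 1 gene of this list higher, and Blzf1 did not pass when high glucose replicate 3 (0.0600), low glucose replicate 3 (0.0524) or low glucose replicate 4 (0.0603) was left out. Arcn1, Kdelr3, Ergic2, Golga2, Gorasp2, Blzf1 and Gorasp1 each overlap another tested gene, and their values are uncertain. The overlap is on the same strand for Arcn1, on both strands for Gorasp1 and on the opposite strand for the others.

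GPI-anchored proteins are the cargo most firmly tied to p24 complexes. Of 27 tested genes for the synthesis, attachment and remodelling of the GPI anchor, 4 rose and 1 fell, and the median of their log2 fold changes was -0.012, beside -0.013 for all genes. Over all genes tested 13.1% rose and 11.9% fell, so the count of this list is near the background and is no result about the list. Pgap1, which removes the acyl chain of the anchor and so prepares the protein for p24 binding, rose from 63.9 ± 8.33 to 108 ± 6.77 CPM (1.69-fold, adjusted p = 0.00034). Gpaa1, a subunit of the transamidase that attaches the anchor, rose 1.40-fold (0.0035), Dpm3, a subunit of the mannose donor synthase, 1.55-fold (0.0098), and Pigv, a mannosyltransferase of the anchor, fell 1.27-fold (0.0117). The count that fell was 2 without high glucose replicate 3, 3 without low glucose replicate 2, 4 with library size alone and 2 with the replicate block. Of 25 tested genes of GPI-anchored surface proteins, 2 rose and 1 fell, beside 13.1% and 11.9% of all genes. With so few genes this is near the background, and the count is no result about the list. The median log2 fold change of the 25 genes was 0.38. But the list's share of the counts, 0.126% to 0.135% in high and 0.127% to 0.134% in low glucose, overlapped between the groups. Cntn1, a neural adhesion protein, rose 2.14-fold (adjusted p = 0.00020) and Ly6e 1.72-fold (0.00060), while Ncam1, of which only some isoforms carry the anchor, fell 1.42-fold (0.00035). With DESeq2 3 of these genes rose and 2 fell. The count that rose was 5 without low glucose replicate 2 and 5 with the replicate block, and with the block 3 fell. Under these 2 settings more genes of the whole table rose too (2656 and 2917, against 2023 in the main test).

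**Figure D5:**
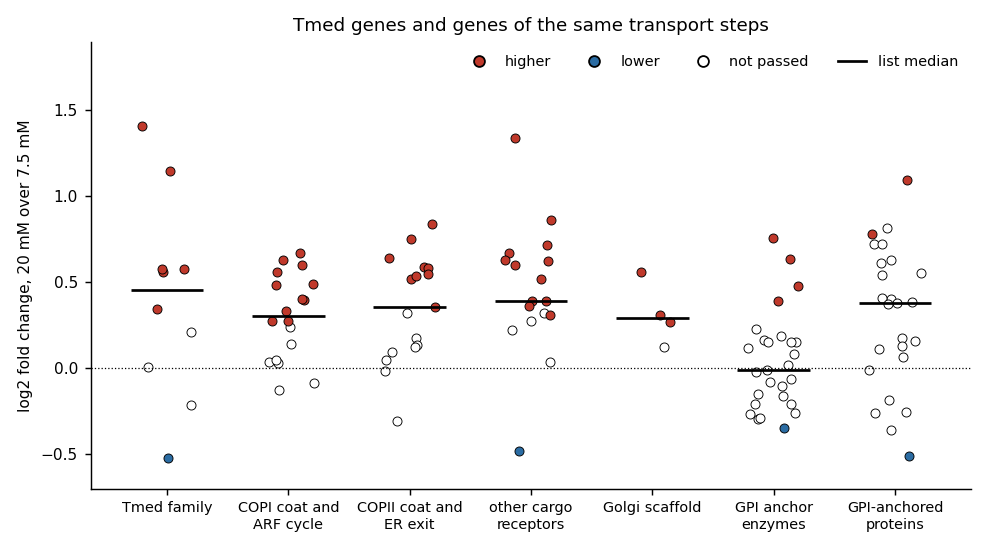
Log2 fold change in high over low glucose of the tested genes of the Tmed family and of 6 lists of the same transport steps (points, 1 per gene), with the list median (black bars). Red points passed as higher, blue points as lower and open points did not pass. The medians run from -0.012 for the GPI anchor enzymes to 0.45 for the Tmed family, and Tmed3 at 1.41 is the uppermost point of the plot.

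The transcripts whose pattern over the 8 libraries was most like that of Tmed3, among 10810 other genes with a mean of at least 5 CPM, were those of Pdia6, a disulfide isomerase of the ER (Pearson r = 0.998), Tubb4b, a β-tubulin (0.998), Manf, an ER-resident secreted factor (0.998), Ssr4, a translocon-associated subunit (0.997), and Bet1, a SNARE that acts in transport to the Golgi (0.997). Pdia6 rose 2.07-fold, Tubb4b 1.88-fold, Manf 2.35-fold, Ssr4 2.58-fold and Bet1 1.98-fold, beside 2.65-fold for Tmed3. For the mean of the 10 Tmed genes the most alike were Reep5, which shapes ER tubules (r = 0.999), Tex30 (0.997), Sec11a, a signal peptidase subunit (0.995), Rexo2, a mitochondrial exonuclease (0.995), and Cycs, which encodes cytochrome c (0.995). Tubb4b, Manf and Sec11a overlap other tested genes, Tubb4b on the opposite strand, Manf on both and Sec11a on the same strand, so their values are uncertain too. These correlations are over 8 libraries on the log2 CPM scale. They include the difference between the groups and share library depth and scaling, and they are given as descriptions only.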

How the data were processed

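RNA of 8 islet libraries was sequenced after NEBNext Ultra library preparation, per the labels' protocols. The submitters' processing notes name STAR 2.5, HTSeq 2, DESeq2 and mm10 (GRCm38). Annotation release, strand setting and multimapping rule were not given in the sources used here.

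The single deposited table holds raw read counts per gene and library, and a deposited signal, which is the count over a size factor of each library. The deposited FPKM equals the count per listed gene length over 1 divisor per library. That divisor is not the library's total of counts, so FPKM sums carry this scaling between libraries. The columns of log2 fold change and p-value hold the authors' own comparison. All rows name a gene.

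The test on counts was that of edgeR 4.0.16 under R 4.3.3 (TMM scaling, filterByExpr with minimum count 10 and minimum total 15, quasi-likelihood fit over 8 libraries with group as the only term, two-sided). Benjamini-Hochberg adjustment of the p-value ran over 15442 genes, with a threshold of 0.05. CPM are counts per TMM-adjusted library size, and log2 CPM for likeness used a prior count of 2. Standard errors were derived from the fold change and its F statistic. Alternatives were RLE scaling, library size alone, DESeq2 1.42.0, limma-voom 3.58.1, no filter, the replicate block, the acinar share as a covariate and leaving out each library. On simulated counts for high against low glucose (15237 genes tested), the test called 49.3% of the 1.5-fold, 76.1% of the 2-fold and 95.5% of the 4-fold changes, and 7 of its 154 calls were false. Far fewer genes were changed there than passed in the data (3854), so these rates may differ for the data.

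Replicate numbers come from the sample titles. Deviations from the group means correlated at 0.101 to 0.475 between same-number libraries (4 pairs) and at -0.367 to 0.207 between the others, so the numbers were taken as pairing the libraries, though the lowest is barely above the 0.1 required and the labels do not say what a number stands for. The main test does not use this pairing. The replicate block does, and with it 5779 genes passed against 3854 in the main test. No 2 libraries agreed within sampling noise (chi-square per gene of at least 14.1). 3 counts correspond to 0.120 to 0.154 CPM, a floor for counting error only.

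The members, gene lists and tests were chosen with earlier results of these data known. Named were all 10 members, Tmed11, from each list up to 3 passing genes that rose and 2 that fell with the smallest adjusted p, all Golgi scaffold genes, and the 5 genes most like Tmed3 and the family mean. Any other gene named was chosen after its values were seen. Promoter windows are from RefSeq (GRCm38.p6), and gene coordinates are those of the deposited table, which are the same in GENCODE M21 for the 10 members.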

Additional observations from a re-analysis of the deposited data

Results flagged for a closer look

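In 4 of 20 sets of 4 libraries (10 Tmed genes in 2 groups), 1 library lay far from the other 3, where chance flags about 1 in 20. The 20 sets come from the same 8 libraries and are not independent of each other. For Tmed3 it was high glucose replicate 2 at 623 CPM and low glucose replicate 2 at 260 CPM. For Tmed5 and Tmed7 it was low glucose replicate 2, at 54.1 and 227 CPM. All 4 carry the number 2 and are the highest of their group. What sets these libraries apart was not tested.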

How the results depend on the processing

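The family counts of 6 higher and 1 lower stayed within 5 to 7 and at 1 under all 16 alternatives. With the replicate block 7 were higher, through Tmed4, and 2862 genes of the whole table were lower in high glucose against 1831 without it (2917 against 2023 higher), and the block changed no other call of a Tmed gene. Tmed3, Tmed6, Tmed9, Tmed10, Tmed2 and Tmed8 kept direction and call in each of the 16, with Tmed3 between 1.33 and 1.54 and Tmed8 between -0.61 and -0.47 on the log2 scale. The calls of Tmed5 and Tmed4 depended on the libraries, as given above. Tmed7 had -0.074 with library size alone, -0.0092 with both libraries numbered 2 left out, and -0.028 to 0.045 when 1 library was left out. Shares of the family sum were the same from counts per kilobase, which by construction give the same ratios. At 118 to 221 counts per library Tmed1 had the widest standard error of the family, and at 0 to 9 counts Tmed11 could not be tested.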
